A study of Mus musculus with 2 samples.

Results

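The 10 genes described here make or control the machinery by which a cell shows peptides on MHC class I: B2m, H2-K1, H2-D1, Tap1, Tap2, Tapbp, Psmb8, Psmb9, Psmb10 and Nlrc5. They were chosen by symbol among the 32285 genes of the count tables, each symbol matched 1 row, and all 10 are accounted for below. The cells were CD45+ cells, which carry the common leukocyte surface protein encoded by Ptprc, sorted from tumors of wild-type mice bearing B16-F10, a transplantable mouse melanoma line. 1 droplet library came from mice given DOPAC (3,4-dihydroxyphenylacetic acid, which cells make when they degrade dopamine) and 1 Control library from mice given vehicle. The design names 4 mice per group, but no tag assigns cells to mice, and doses, times and the mice's ages were not given in the sources used here. Each group is therefore 1 sample, no difference below has a replicate check, and no p-value is given.

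Class I molecules carry peptides cut from proteins inside the cell to the surface, where CD8 T cells read them and where NK cells sense their loss. H2-K1 and H2-D1 encode classical heavy chains, and B2m encodes beta-2 microglobulin, the light chain that every class I molecule needs to fold and reach the surface. Psmb8, Psmb9 and Psmb10 encode the catalytic subunits that replace those of Psmb5, Psmb6 and Psmb7 when a proteasome becomes an immunoproteasome. Tap1 and Tap2 form the pump that moves the peptides into the endoplasmic reticulum, Tapbp (tapasin) ties the pump to the empty class I molecule, and Nlrc5 is the transactivator that binds class I promoters together with other factors. Interferon gamma is a known inducer of the whole set, and B16 melanoma cells are known for low class I levels that interferon gamma raises.

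In the GRCm38 annotation, 7 of the 10 genes lie on chromosome 17, in the mouse MHC. Their spans are chr17:33915899-33929292 for Tapbp, chr17:33996017-34000347 for H2-K1 (minus strand), chr17:34181987-34187764 for Psmb9 (minus strand), chr17:34187553-34197225 for Tap1, chr17:34197721-34201454 for Psmb8, chr17:34203527-34216321 for Tap2 and chr17:35262730-35267499 for H2-D1. B2m lies at chr2:122147686-122153083, Nlrc5 at chr8:94434356-94527272 and Psmb10 at chr8:105935735-105938444 (minus strand). Psmb9 and Tap1 are divergent neighbours whose RefSeq start sites are 225 bases apart, so that 1 stretch of DNA serves as the promoter window of both.

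The RefSeq promoter table (GRCm38.p6) held 8 of the 10 genes, all but Tap2 and Nlrc5. The 250 bases upstream of the start site are shown for the light chain, both heavy chains, the Tap1 and Psmb9 pair and Psmb8, because the levels of these genes carry the comparisons below. Each is written 5′ to 3′ on the gene's own strand, with matches to 4 motifs, searched on both strands, in capitals. The motifs were GAAA followed by any 2 bases and a second GAAA (a paired site of interferon regulatory factors), TTCNNNGAA (a STAT dimer site), CCAAT and TGACG, and no match overlapped another.
B2m, chr2:122147437-122147686, plus strand: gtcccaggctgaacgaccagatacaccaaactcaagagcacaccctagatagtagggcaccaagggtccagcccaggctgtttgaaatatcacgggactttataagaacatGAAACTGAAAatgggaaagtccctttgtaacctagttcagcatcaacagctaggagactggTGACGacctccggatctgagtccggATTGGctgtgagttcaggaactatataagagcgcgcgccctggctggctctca
H2-K1, chr17:34000348-34000597, minus strand: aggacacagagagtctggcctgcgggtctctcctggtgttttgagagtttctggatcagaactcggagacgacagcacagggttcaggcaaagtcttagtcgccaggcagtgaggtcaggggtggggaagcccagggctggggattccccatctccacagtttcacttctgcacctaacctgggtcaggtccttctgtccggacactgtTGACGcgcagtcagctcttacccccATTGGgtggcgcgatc
H2-D1, chr17:35262844-35263093, plus strand: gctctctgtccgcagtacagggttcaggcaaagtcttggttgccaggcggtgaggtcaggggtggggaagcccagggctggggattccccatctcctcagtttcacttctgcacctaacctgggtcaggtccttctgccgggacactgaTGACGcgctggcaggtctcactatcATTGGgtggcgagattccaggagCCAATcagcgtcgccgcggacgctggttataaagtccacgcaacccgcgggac
Tap1, chr17:34187306-34187555, plus strand: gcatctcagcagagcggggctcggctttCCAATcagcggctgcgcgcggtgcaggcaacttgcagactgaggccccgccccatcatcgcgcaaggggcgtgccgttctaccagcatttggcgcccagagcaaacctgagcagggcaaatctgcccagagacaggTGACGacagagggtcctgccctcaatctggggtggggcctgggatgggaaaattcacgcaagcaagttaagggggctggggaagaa
Psmb8, chr17:34197945-34198194, plus strand: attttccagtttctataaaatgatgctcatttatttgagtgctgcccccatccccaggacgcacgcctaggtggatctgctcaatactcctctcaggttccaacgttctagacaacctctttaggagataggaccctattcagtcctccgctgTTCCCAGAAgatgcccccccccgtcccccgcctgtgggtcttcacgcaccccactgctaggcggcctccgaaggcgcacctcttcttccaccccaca

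The GAAA pair was found in 1 of the 8 windows, that of B2m, where GAAACTGAAA lies 139 to 130 bases upstream of the start site, and in 3.04% of all 27025 promoter windows of this length. TTCNNNGAA was found in 1 of 8, that of Psmb8, against 7.18% of all windows. CCAAT was found in 6 of 8 against 34.5% of all windows, and TGACG in 5 of 8 (B2m, H2-K1, H2-D1, Tap1 and Psmb9) against 17.9%. The Tap1 and Psmb9 windows share 225 bases and both their CCAAT and their TGACG match, so that they count as 1 stretch of DNA. The H2-K1 and H2-D1 windows also resemble each other, with an identical run of 47 bases. A match describes letters in these windows, not a bound site.

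Each cell's RNA was counted as UMIs, random tags that mark single captured molecules. After filtering, 9225 DOPAC cells with a median of 3591 UMIs and 8079 Control cells with a median of 9300 UMIs were kept, and 24 kept barcodes occurred in both libraries. Cells were assigned by the UMIs of marker genes. The T class held 3842 DOPAC and 1457 Control cells, NK 778 and 809, B 35 and 641, dendritic 269 and 1322, and myeloid (monocytes and macrophages) 1145 and 2347. A further 34.0% of DOPAC cells and 17.5% of Control cells met no gate. Barcodes with at least 4 of 6 melanocyte markers (Pmel, Mlana, Dct, Tyrp1, Tyr, Sox10), at 0.5% or more of their UMIs, were called melanoma-like. There were 11 of them in the DOPAC and 32 in the Control library, although the sort was for CD45. Haemoglobin UMIs, a sign of red cell RNA, made up 0.000112% of the DOPAC and 0.0984% of the Control UMIs.

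All 10 genes were detected in each of these 6 classes in both libraries, except for Tap2, which had 0 UMIs in the 35 DOPAC B cells. Levels are given as CPM, the UMIs of a gene per 1000000 UMIs summed over the cells of a class, and brackets hold 95% intervals that cover counting error only. In the Control library the dendritic class held the highest level of 5 of the 10 genes (Tap1, Tap2, Tapbp, Psmb8 and Psmb9), NK cells that of B2m, H2-K1 and H2-D1, T cells that of Nlrc5 and the myeloid class that of Psmb10. Melanoma-like barcodes held the lowest level of 9 of the 10 there. In the DOPAC library they were lowest for 1 gene, Tapbp, and highest for 1, Psmb10. Between neighbours in this order, the intervals overlapped in 28 of 50 pairs in the DOPAC library and 13 of 50 in the Control library, so that those orders are not resolved by the counts. The order of the classes differed between the libraries for B2m. In the DOPAC library B2m was highest in myeloid cells (4865 CPM), followed by melanoma-like (3917), dendritic (3656), T (3068), NK (2669) and B cells (2137). In the Control library it was highest in NK cells (2254 CPM), followed by T (2191), myeloid (2093), dendritic (1781), B (1329) and melanoma-like barcodes (605).

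**Figure D1:**
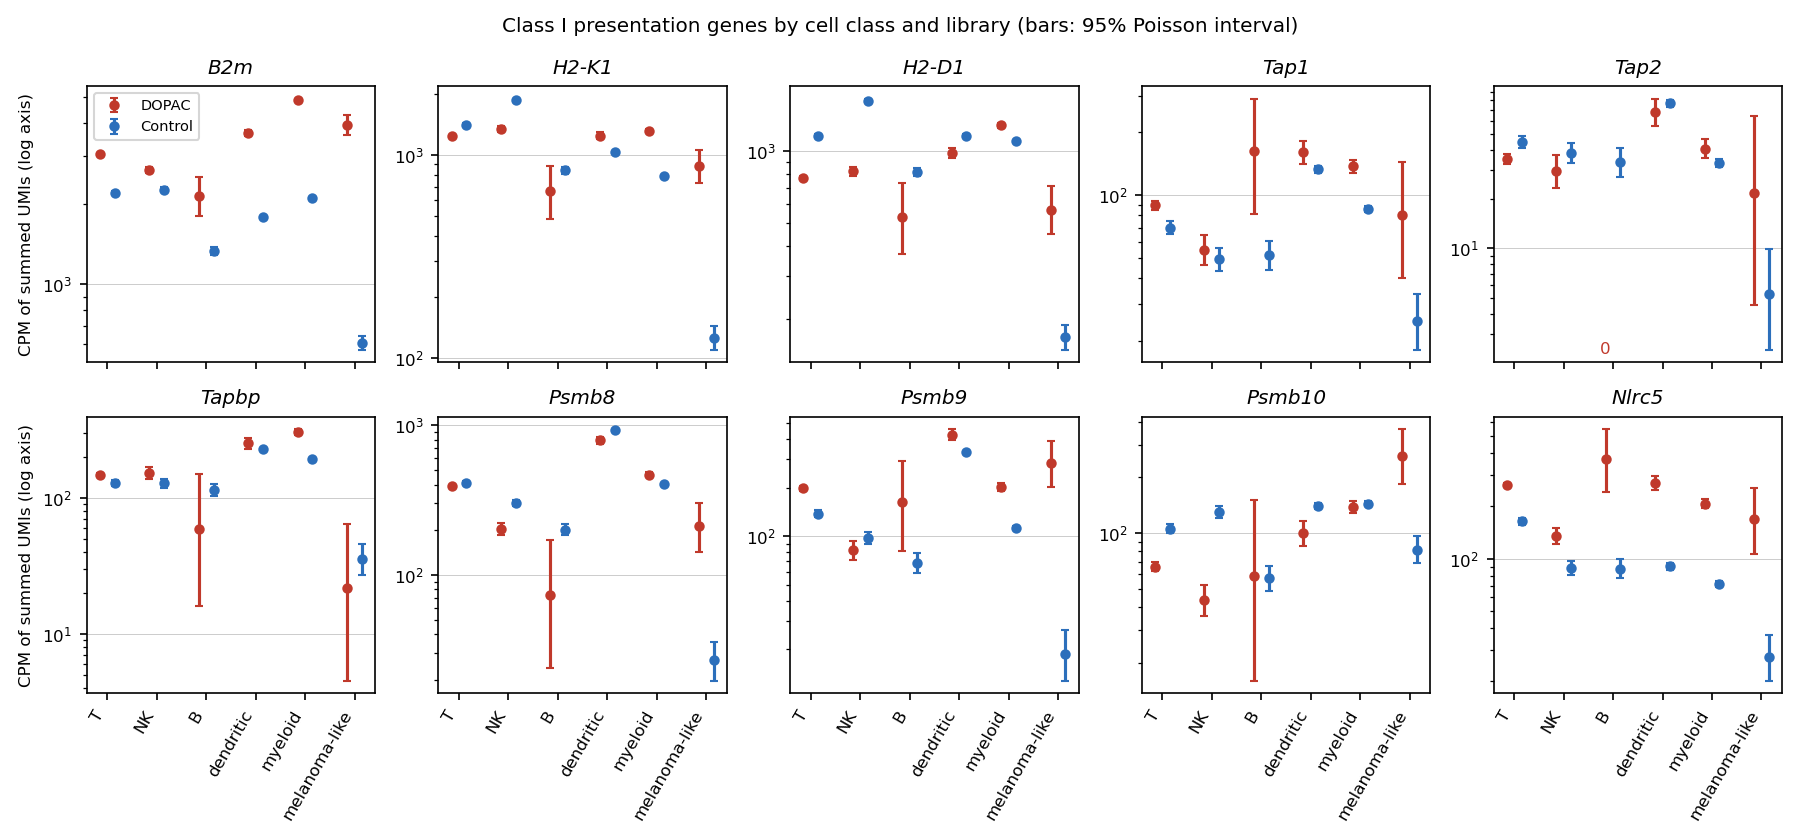
Levels of the 10 genes in CPM (log axis, scaled for each gene) by cell class, with DOPAC in red and Control in blue; bars are exact 95% Poisson intervals of the summed UMIs, and 0 marks a sum without UMIs. The blue melanoma-like point is the lowest Control point for 9 of the 10 genes, and the red B2m and Nlrc5 points lie above the blue ones in all 6 classes.

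B2m, the shared light chain, was higher in the DOPAC library in 6 of 6 classes. Its fold of DOPAC over Control was 1.40 (1.38 to 1.42) in T cells, 1.18 (1.15 to 1.22) in NK cells, 1.61 (1.35 to 1.90) in B cells, 2.05 (1.998 to 2.11) in dendritic cells and 2.32 (2.29 to 2.36) in myeloid cells. In melanoma-like barcodes it was 6.47 (5.82 to 7.19). The difference was thus smallest in lymphocytes and larger in the dendritic and myeloid classes.

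The heavy chains, which pair with B2m, did not share this direction in lymphocytes. H2-D1 had 769 CPM in DOPAC and 1149 CPM in Control T cells, which is 1.49 (1.46 to 1.53) times lower. In NK cells H2-D1 had 823 CPM in the DOPAC and 1613 CPM in the Control library, 1.96 (1.87 to 2.06) times lower. H2-D1 was also lower in B and dendritic cells, and it was higher in myeloid cells at 1278 CPM in the DOPAC and 1094 CPM in the Control library. H2-K1 had 1245 CPM in DOPAC and 1413 CPM in Control T cells, and 1347 and 1862 CPM in NK cells. It was 1.20-fold (1.15 to 1.26) higher in DOPAC dendritic cells and 1.66-fold (1.61 to 1.70) higher in DOPAC myeloid cells. The dendritic differences of H2-K1 and H2-D1 were not seen in every subset, as given below. T and NK cells of the DOPAC library thus had more B2m and less H2-K1 and H2-D1 per UMI counted, whereas in DOPAC myeloid cells all 3 were higher. In the last 500 bases of its longest annotated transcript, 9.53% of H2-D1's 50-base words also occur in other genes, against 0.443% for H2-K1 and 0% for the other members, so that reads of H2-D1 are the least certain of the set.

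Among the genes of peptide supply, Tap1 was higher in the DOPAC library in 6 of 6 classes, with an interval above 1 in 5 of them. With cells thinned to 1000 UMIs, the log2 ratio of Tap1 in dendritic cells was -0.37. It had 89.3 CPM in DOPAC and 70.0 CPM in Control T cells, 160 and 133 CPM in dendritic cells, and 138 and 85.9 CPM in myeloid cells. Its partner Tap2 had 35.2 CPM in DOPAC and 44.5 CPM in Control T cells, 29.7 and 38.4 CPM in NK cells, 68.3 and 76.9 CPM in dendritic cells, and 40.7 and 33.1 CPM in myeloid cells. The partners of the pump thus stood on opposite sides in the T class, though both were lower in the DOPAC library without naive-type T cells (folds of 0.797 for Tap1 and 0.619 for Tap2). The Tap2 intervals in NK and dendritic cells included no difference. In B cells the 0 Tap2 UMIs of the DOPAC library allow up to 54.4 CPM, above the Control level of 33.7 CPM, so that the counts could not show a difference. Tapbp had 306 CPM in DOPAC and 193 CPM in Control myeloid cells, and it was 1.15-fold (1.08 to 1.22) higher in DOPAC T cells and 1.18-fold (1.04 to 1.34) higher in DOPAC NK cells.

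The 3 immunoproteasome genes differed among themselves. Psmb9 was higher in the DOPAC library in T cells (197 against 138 CPM), dendritic cells (425 against 330 CPM) and myeloid cells (201 against 113 CPM), and lower in NK cells (82.1 against 97.9 CPM). Its differences in T and dendritic cells were not seen in every subset, as given below. Psmb10 was lower in T cells, at 66.2 CPM in the DOPAC and 106 CPM in the Control library, and 3.004 (2.46 to 3.70) times lower in NK cells, at 43.5 and 131 CPM. In dendritic cells Psmb10 had 101 CPM in the DOPAC and 141 CPM in the Control library, a fold of 0.716 (0.608 to 0.838). In myeloid cells Psmb10 had 139 CPM in the DOPAC and 144 CPM in the Control library, a fold of 0.960 whose interval (0.888 to 1.04) included 1. Psmb8 lay between them, with folds of 0.948 in T, 0.673 in NK, 0.855 in dendritic and 1.16 in myeloid cells.

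Nlrc5, the transactivator, was at least 1.5-fold higher in the DOPAC library in 6 of 6 classes. It had 261 CPM in DOPAC and 163 CPM in Control T cells, 135 and 88.2 CPM in NK cells, 368 and 87.4 CPM in B cells, 270 and 90.4 CPM in dendritic cells, 205 and 71.7 CPM in myeloid cells, and 168 and 27.4 CPM in melanoma-like barcodes. The fold was 1.60 (1.52 to 1.69) in T and 1.53 (1.33 to 1.76) in NK cells, against 2.98 (2.68 to 3.31) in dendritic and 2.86 (2.66 to 3.07) in myeloid cells. Nlrc5 was the one member past 1.5-fold in all 6 classes, though not in every subset of T cells. How many of all genes were past it in all 6 classes was not counted. In T and NK cells Nlrc5 was higher while H2-K1 and H2-D1 were lower.

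**Figure D2:**
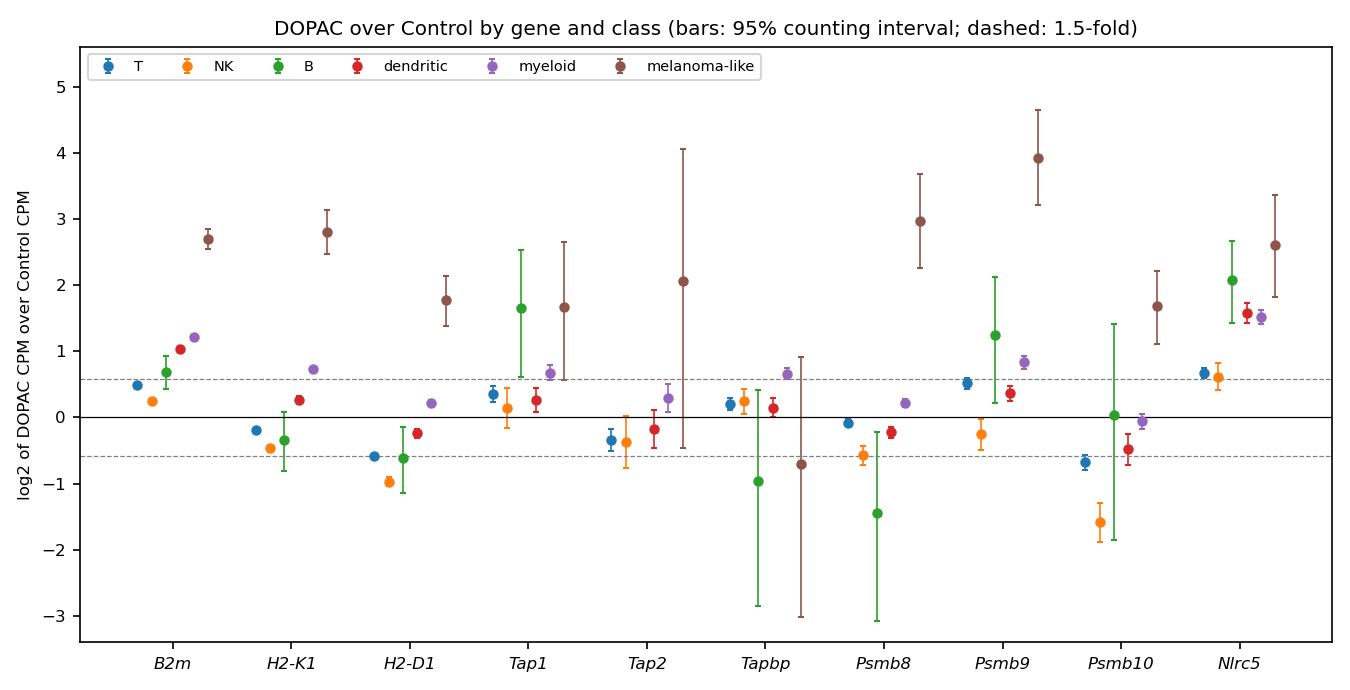
Log2 of DOPAC CPM over Control CPM for each gene (columns) and class (colours), with 95% counting intervals; dashed lines mark 1.5-fold in either direction, and Tap2 in B cells is left out because the DOPAC sum was 0. The purple myeloid points lie at or above 0 except for Psmb10, and the brown melanoma-like points lie above all other classes for 9 of the 10 genes, all but Tapbp.

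A log2 ratio of DOPAC over Control with 1 count added to each sum was used to count genes past 1.5-fold, which is a size and not a test. In myeloid cells 6 of 10 members were at least 1.5-fold higher (B2m, H2-K1, Tap1, Tapbp, Psmb9 and Nlrc5) and 0 were lower, beside 15.4% of all genes higher and 18% lower. Their median log2 ratio was 0.67, against -0.05 over all genes with at least 20 UMIs. In dendritic cells 2 of 10 were higher (B2m and Nlrc5) and 0 lower, beside 18.1% in each direction, with a median of 0.21 against 0.01. In T cells 1 member was higher (Nlrc5) and 1 lower (Psmb10), beside 15.2% and 24.1% of all genes, with a median of 0.06 against -0.10. In NK cells 1 was higher (Nlrc5) and 2 lower (H2-D1 and Psmb10), beside 11.9% and 18.7%, with a median of -0.30 against -0.08. The T and NK shares of members were near those of all genes, and the medians of T, NK and dendritic cells rest on small differences in both directions.

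The B class had 35 DOPAC cells, and 4 of its DOPAC sums for members were 5 UMIs or fewer. There 4 of 10 were higher (B2m, Tap1, Psmb9 and Nlrc5) and 3 lower (Tap2, Tapbp and Psmb8), beside 41.2% of all genes higher and 11.6% lower. Adding 1 count weighs more in the smaller sum, and with the added counts shared in proportion to the totals 20.9% of all genes were higher and 38.3% lower in B cells, and 4 members were higher and 4 lower. The DOPAC sums of B cells were 145 UMIs for B2m, 45 for H2-K1, 36 for H2-D1, 25 for Nlrc5 and 11 or fewer for the other members. H2-D1 had a fold of 0.651 (0.455 to 0.905) there, and the H2-K1 interval (0.572 to 1.06) included 1.

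The classes held different mixtures in the 2 libraries, which bears on the T and myeloid values. T cells with at least 2 UMIs of naive-type genes (Lef1, Tcf7, Ccr7, S1pr1) were 594 of 3842 in the DOPAC library and 1281 of 1457 in the Control library. The deeper Control cells reach such a count of UMIs more easily, and the part of depth in these numbers was not tested. Among the naive-type T cells alone, B2m was 1.29-fold (1.26 to 1.32) higher, Nlrc5 1.56-fold (1.44 to 1.70) higher, H2-D1 1.51 (1.45 to 1.58) times lower and Psmb10 1.67 times lower. Without the naive-type cells, 3248 DOPAC and 176 Control cells were left, and the median of the 10 genes was -0.38 against -0.21 over all genes. There H2-K1 had 1261 CPM in the DOPAC and 1881 CPM in the Control library, H2-D1 777 and 1498 CPM, Tap1 90.6 and 114 CPM, and Nlrc5 262 and 179 CPM. The Tap1 difference thus turned round without the naive-type cells, the B2m fold became 1.13 (1.10 to 1.17), and H2-K1 and H2-D1 were lower with and without these cells. Tapbp also turned round, with a fold of 0.859 (0.748 to 0.989), and the Psmb9 fold of 1.04 (0.918 to 1.19) had an interval that included 1. In CD4 T cells (102 and 216 cells) H2-D1 had a fold of 0.744 (0.665 to 0.830), whereas H2-K1 had 1582 CPM in the DOPAC and 1529 CPM in the Control library, a fold of 1.03 (0.948 to 1.13). In CD8 T cells without naive-type cells (2695 DOPAC and 58 Control cells), Nlrc5 had 256 CPM in the DOPAC and 259 CPM in the Control library, a fold of 0.991 (0.820 to 1.21), and B2m had a fold of 1.05 (0.993 to 1.11). The higher Nlrc5 and B2m of the T class were thus not seen among these CD8 T cells, of which the Control library held few, whereas H2-D1 was 1.92 (1.77 to 2.08) times lower there.

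Myeloid cells were split into monocyte-type (714 and 1305 cells) and macrophage-type cells with C1q genes (316 DOPAC and 982 Control cells). In macrophage-type cells the median of the 10 genes was 0.85, against -0.04 over all genes, and 6 of 10 were at least 1.5-fold higher, beside 16.1% of all genes. H2-K1 had 1568 CPM in DOPAC and 783 CPM in Control macrophage-type cells, Psmb9 221 and 101 CPM, and Tap1 141 and 73.7 CPM. In monocyte-type cells the median was 0.46 against 0.01, with 2 of 10 higher beside 15.7% of all genes, B2m at 2.19-fold (2.15 to 2.23) and Nlrc5 at 2.58-fold (2.35 to 2.83), while H2-D1 was at 1.03-fold (0.996 to 1.07). Among dendritic subsets the median of the 10 genes was 0.06 in cDC1 (82 and 345 cells), against 0.08 over all genes, and -0.05 in cDC2 (21 and 209), against 0.29. It was 0.08 in mature dendritic cells (97 and 284), against 0.05, and 0.08 in plasmacytoid cells (51 and 386), against 0.13. The higher median of the whole dendritic class was thus not seen within these subsets. B2m was between 1.84-fold and 2.10-fold higher, and Nlrc5 between 2.15-fold and 5.14-fold higher, in these 4 subsets. The Psmb9 interval included 1 in cDC1, mature and plasmacytoid cells (folds of 1.04, 1.10 and 1.02). In cDC2 Psmb9 was 1.83-fold (1.20 to 2.67) higher, from 28 DOPAC UMIs. H2-K1 was higher in cDC1 and plasmacytoid cells (folds of 1.37 and 1.44), and its interval included 1 in cDC2 and mature cells (0.911 and 1.02). H2-D1 was lower in cDC1 and mature cells (folds of 0.897 and 0.731), and its interval included 1 in cDC2 and plasmacytoid cells (0.934 and 0.962).

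Shares within a set of genes of the same cells do not depend on how the libraries are scaled. UMIs of Psmb8, Psmb9 and Psmb10 were taken as a share of these plus their constitutive counterparts Psmb5, Psmb6 and Psmb7, without correction for gene length. The share was higher in the DOPAC library in 6 of 6 classes, with intervals apart in 4. It was 70.0% in DOPAC and 56.4% in Control myeloid cells, 81.1% and 75.2% in dendritic cells, 71.9% and 67.3% in T cells, and 67.1% and 63.5% in NK cells. Of 11 subsets of these classes, of which those of T cells overlap in their cells, 9 had a higher share in the DOPAC library, with intervals apart in 5. Without naive-type cells it was 72.1% (71.4 to 72.8) in DOPAC and 70.5% (68.2 to 72.7) in Control T cells, with overlapping intervals, and 72.1% and 74.0% in CD8 T cells. In plasmacytoid cells it was 67.9% and 68.6%. In melanoma-like barcodes it was 58.8% (51.1 to 66.1) in the DOPAC and 21.2% (18.8 to 23.9) in the Control library. Psmb5 and Psmb6 were at least 1.5-fold lower in DOPAC NK, dendritic and myeloid cells, beside 18.7%, 18.1% and 18% of all genes. The higher share in NK cells went with lower levels of all 6 genes. By pairs, Psmb9 made up 58.4% (56.1 to 60.6) of Psmb9 plus Psmb6 in DOPAC and 33.6% (32.7 to 34.4) in Control myeloid cells. Psmb10 went the other way in T and NK cells. It made up 47.1% (45.3 to 48.9) of Psmb10 plus Psmb7 in DOPAC and 54.1% (52.0 to 56.1) in Control T cells. In NK cells it made up 44.0% (37.8 to 50.3) in the DOPAC and 61.4% (58.4 to 64.3) in the Control library. The intervals overlapped in B cells (40.0% and 43.1%), dendritic cells (50.3% and 53.2%) and CD4 T cells (53.5% and 52.4%).

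**Figure D3:**
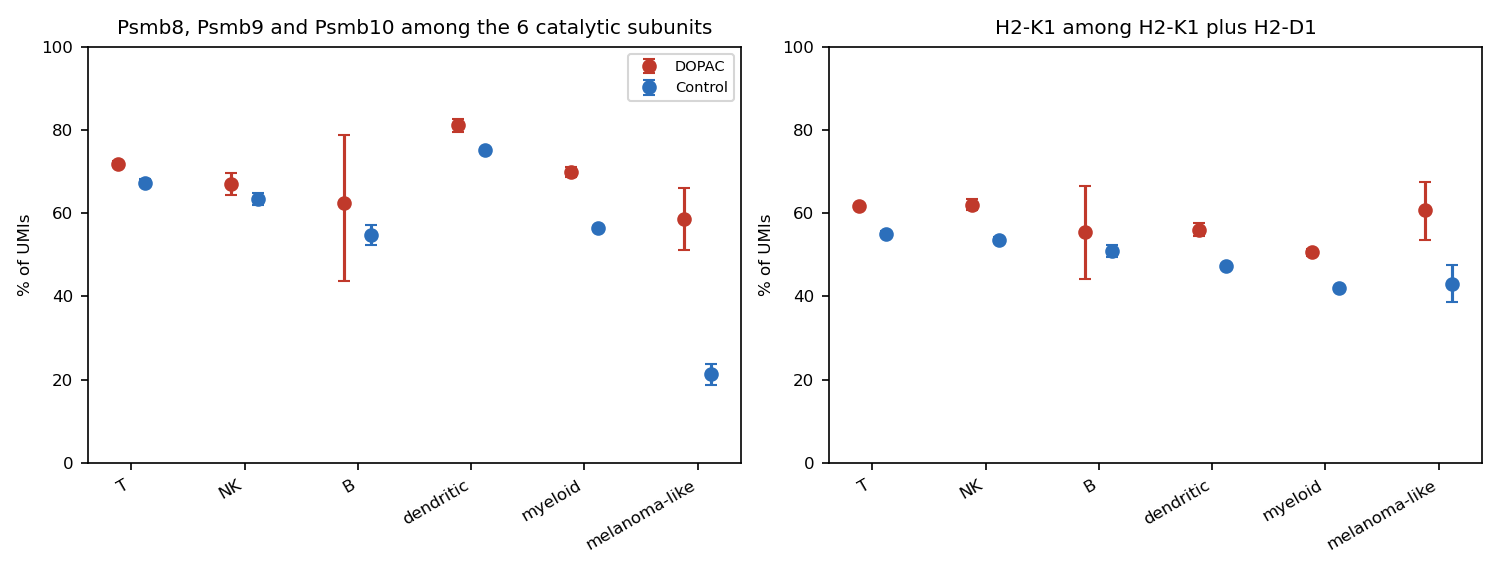
Immunoproteasome UMIs as a percent of the 6 catalytic subunits (left) and H2-K1 UMIs as a percent of H2-K1 plus H2-D1 (right) by class, DOPAC in red and Control in blue, with exact 95% Clopper-Pearson intervals. Each red point lies above its blue neighbour, and the gap is widest for the immunoproteasome share of melanoma-like barcodes (58.8% and 21.2%).

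The balance of the classical heavy chains also differed. H2-K1 made up 61.8% of H2-K1 plus H2-D1 UMIs in DOPAC and 55.1% in Control T cells, 62.1% and 53.6% in NK cells, 56.1% and 47.4% in dendritic cells, 50.6% and 42.0% in myeloid cells, and 60.8% and 43.0% in melanoma-like barcodes. It was higher in the DOPAC library in 6 of 6 classes, with intervals apart in 5, all but B cells (55.6% and 50.9%). Of the 11 subsets, of which those of T cells overlap in their cells, 10 had a higher share in the DOPAC library, with intervals apart in 10. In cDC2 the share was 44.1% in the DOPAC and 44.8% in the Control library. H2-D1, whose reads are the least certain of the set, enters each of these shares.

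Melanoma-like barcodes showed the widest differences between the libraries. B2m had 3917 CPM in the DOPAC and 605 CPM in the Control library, H2-K1 883 and 126 CPM (6.997-fold, 5.55 to 8.78), and H2-D1 569 and 167 CPM (3.41-fold, 2.62 to 4.39). All 3 immunoproteasome genes were higher, Psmb9 at 284 against 18.7 CPM (15.2-fold, 9.29 to 25.1), Psmb8 at 212 against 26.9 CPM (7.87-fold, 4.77 to 12.8) and Psmb10 at 263 against 81.7 CPM (3.21-fold, 2.16 to 4.66). Tap1 had 80.2 and 25.1 CPM (3.20-fold, 1.49 to 6.30). Tapbp was not seen to follow, with 21.9 CPM from 3 UMIs in the DOPAC and 35.6 CPM from 61 UMIs in the Control library. Its fold of 0.614 had an interval (0.123 to 1.88) that included 1. The log2 ratio of Tapbp was -0.31, against 0.061 with the gate on thinned cells and 1.63 with cells thinned to 1000 UMIs, so that its sign is not settled. Tap2 had 3 DOPAC and 9 Control UMIs, too few to compare. Of the 9 members with at least 20 UMIs, 8 were at least 1.5-fold higher and 0 lower, beside 23.1% of all genes higher and 20.3% lower. With the added counts shared in proportion to the totals, the counts were 8 higher and 1 lower (Tapbp), beside 15.4% and 33.3% of all genes.

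The summed level of the 10 genes differed barcode by barcode. UMIs of the 10 genes per 1000000 of a barcode's UMIs ranged from 4798 to 10279 with a median of 7040 over the 11 DOPAC barcodes, and from 0 to 3750 with a median of 1137 over the 32 Control barcodes, without overlap. The ranges of each single member did overlap. B2m ranged from 2468 to 6177 in DOPAC and from 0 to 2917 in Control barcodes, and H2-K1 from 190 to 1476 and from 0 to 770. Whether sums of other genes also lay apart was not tested. The barcodes of a library are not replicates of the treatment. Their depth differed, with medians of 8162 UMIs in the DOPAC and 58292 UMIs in the Control library. Thinned to 1000 UMIs each, 0 of 10 DOPAC barcodes (which allows a share of up to 30%) and 8 of 31 Control barcodes (25.8%) had no UMI of the 10 genes. Unthinned, 0 of 11 DOPAC and 1 of 32 Control barcodes had none. Among barcodes under 20000 UMIs, 9 DOPAC and 12 Control, the median log2 ratio of the members was 1.92, against 2.64 over all barcodes.

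**Figure D4:**
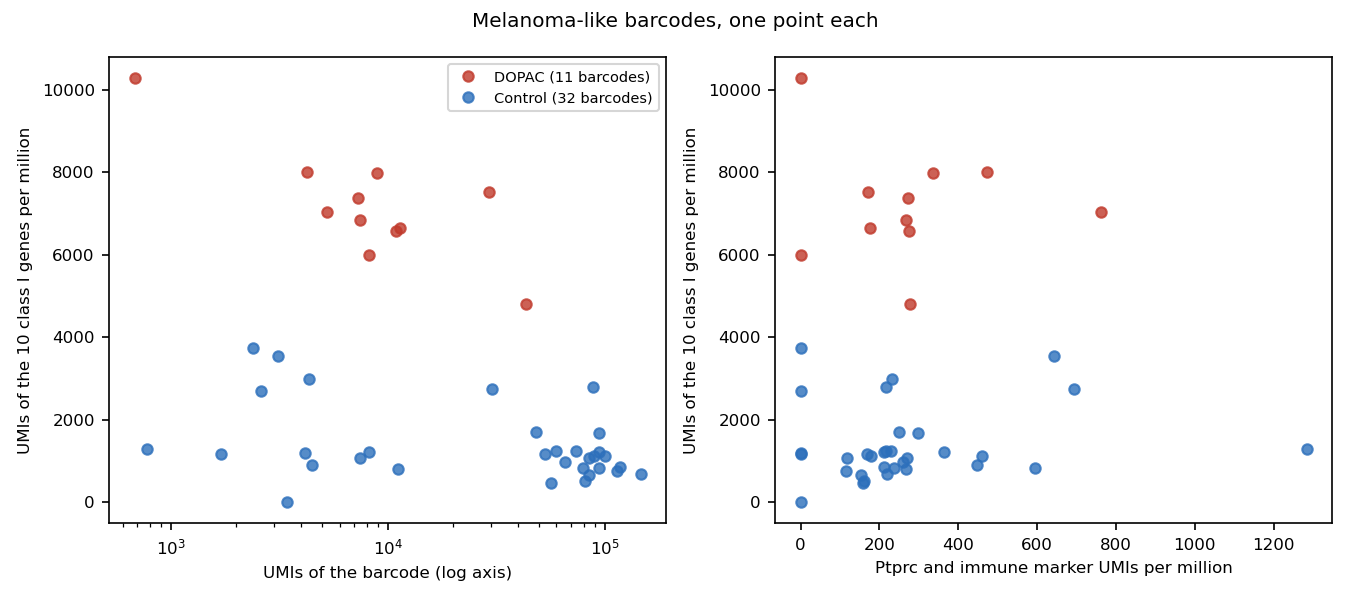
UMIs of the 10 class I genes per 1000000 in each melanoma-like barcode against the barcode's total UMIs (left, log axis) and against its UMIs of Ptprc and immune markers per 1000000 (right); red points are 11 DOPAC and blue points 32 Control barcodes. The red points lie between 4798 and 10279 and the blue points between 0 and 3750, and the red points reach 43349 UMIs on the depth axis, against 146809 UMIs for the blue points.

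Set against the 5 immune classes of the same library, pooled with equal weight, the median member stood at 67.1% of the immune level in DOPAC melanoma-like barcodes and at 18.4% in Control melanoma-like barcodes. By gene, Psmb9 stood at 133% of the immune level in DOPAC and 12.5% in Control barcodes, B2m at 119% and 31.4%, H2-K1 at 75.9% and 10.6%, Nlrc5 at 67.7% and 27.4%, and Tapbp at 11.9% and 22.5%. RNA of immune cells in these barcodes was followed with 38 markers of the immune and neutrophil lists, which summed to 146 CPM (4.40% of the level in the immune classes) in the DOPAC and 201 CPM (5.59%) in the Control library. 29 of the 38 were at 0 in the DOPAC and 6 of 38 in the Control library, whose sum held more UMIs. Ptprc had 109 CPM in DOPAC and 43.2 CPM in Control melanoma-like barcodes, which was 7.47% and 2.94% of the immune level. Single markers varied, with Fscn1, a dendritic marker, at 98.4% of the immune level in DOPAC and 117% in Control barcodes, and Cd3d at 14.1% (2.90 to 41.1) from 3 UMIs in DOPAC and 2.55% in Control barcodes. The melanoma markers summed to 10948 CPM in the DOPAC and 9474 CPM in the Control melanoma-like barcodes. The part of RNA from other cells in the difference was not tested.

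Other genes of the pathway were counted as lists. Of 8 genes of class I assembly and trimming, Erap1, the aminopeptidase that trims peptides in the endoplasmic reticulum, was at least 1.5-fold higher in the DOPAC library in all 4 classes with 100 or more cells in both libraries. It had 71.9 CPM in DOPAC and 47.3 CPM in Control T cells, 51.2 and 29.6 CPM in NK cells, 48.8 and 30.8 CPM in dendritic cells, and 44.0 and 28.8 CPM in myeloid cells. Of all genes, 15.2%, 11.9%, 18.1% and 15.4% were that much higher in these classes, each taken alone. Psme1, a subunit of the proteasome activator PA28, was 1.71-fold (1.64 to 1.79) higher in myeloid cells and 0.978-fold (0.895 to 1.07) in NK cells. In melanoma-like barcodes 3 of the 7 counted genes of this list were higher, beside 23.1% of all genes. Psme1 was among them, at 387 CPM in the DOPAC and 76.5 CPM in the Control library. The chaperones Calr, Canx and Pdia3 differed there by 1.25-fold, 1.16-fold and 1.12-fold, and Psmb5, Psmb6 and Psmb7 by 1.13-fold each. Of 10 nonclassical class I genes, 6 were higher in myeloid cells and 0 lower, beside 15.4% and 18% of all genes, among them H2-T23 at 250 CPM in DOPAC and 110 CPM in Control cells. In T cells 0 were higher and 2 lower, beside 15.2% and 24.1% of all genes. In NK cells 0 of the 9 counted were higher and 2 lower, beside 11.9% and 18.7%, so that the lower counts were near those of all genes.

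Of 11 interferon gamma pathway genes, 7 were at least 1.5-fold higher in myeloid cells and 0 lower, beside 15.4% and 18% of all genes, and 6 and 0 in dendritic cells, beside 18.1% each way. In T cells 3 were higher and 4 lower, beside 15.2% and 24.1%, and in NK cells 4 and 4, beside 11.9% and 18.7%. The myeloid and dendritic counts include Ifng itself, at 11.4 CPM in DOPAC and 2.61 CPM in Control myeloid cells and 9.76 and 2.08 CPM in dendritic cells. The 5 T markers summed to 89.6 CPM in DOPAC and 21.0 CPM in Control myeloid cells, and to 89.7 and 27.4 CPM in dendritic cells, and their part in these counts was not tested. Gbp4, an interferon-inducible GTPase, had 173 CPM in DOPAC and 27.6 CPM in Control myeloid cells, 73.2 and 19.7 CPM in dendritic cells, 69.6 and 43.1 CPM in T cells, and 61.7 and 37.4 CPM in NK cells. Cxcl9, a chemokine for activated T cells, had 1071 CPM in DOPAC and 236 CPM in Control myeloid cells and 761 and 161 CPM in dendritic cells. It was also counted as higher in T cells (45.3 and 7.76 CPM) and NK cells (22.7 and 10.5 CPM). The part of RNA from other cells in these lymphocyte values was not tested. Ifng had 187 CPM in DOPAC and 84.1 CPM in Control T cells, and 116 and 168 CPM in NK cells. Irf1, a transcription factor that acts on class I promoters, was lower in T cells at 124 CPM in the DOPAC and 233 CPM in the Control library, and in NK cells at 133 and 215 CPM. It was higher in myeloid cells at 223 and 120 CPM, and in melanoma-like barcodes at 124 and 25.1 CPM. T and NK cells thus had both Irf1 and H2-D1 lower, and myeloid cells and melanoma-like barcodes had both higher. Dendritic cells had Irf1 1.23-fold higher and H2-D1 lower, and the Irf1 interval in B cells (0.565 to 1.76) included 1. A link between Irf1 and H2-D1 was not tested. Irf1 is 1 of 10 listed regulators. Of these, 1 was at least 1.5-fold higher (Irf8) and 4 lower in T cells, beside 15.2% and 24.1% of all genes. NK cells had 1 higher (Stat2) and 3 lower, beside 11.9% and 18.7%. Myeloid cells had 2 higher and 0 lower, beside 15.4% and 18%, so that the higher count was near that of all genes. Dendritic cells had 1 higher and 1 lower, beside 18.1% each way, and B cells 4 and 1, beside 41.2% and 11.6%. In melanoma-like barcodes 4 of the 8 counted were higher and 1 lower, beside 23.1% and 20.3%.

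Genes of MHC class II, which presents peptides taken up from outside the cell, did not follow class I in most classes. Of 7 genes, 7 were at least 1.5-fold lower in T cells beside 24.1% of all genes, 6 of the 6 counted in NK cells beside 18.7%, 5 in B cells beside 11.6% and 2 in dendritic cells beside 18.1%, whereas 2 were higher in myeloid cells beside 15.4%. Markers of dendritic and B cells were lower in the same T and NK cells. The 9 dendritic markers summed to 22.96 CPM in DOPAC and 45.0 CPM in Control T cells, where H2-Aa had 190 and 369 CPM, and to 40.1 and 103 CPM in NK cells, where Cd74 had 170 and 435 CPM. The 5 B markers summed to 0.870 CPM in DOPAC and 12.1 CPM in Control T cells. The part of RNA from other cells in the class II counts of T and NK cells was not tested. In melanoma-like barcodes 6 of the 6 counted were higher, beside 23.1% of all genes (15.4% with the added counts shared in proportion to the totals). Cd74, the class II invariant chain, had 1451 CPM in DOPAC and 302 CPM in Control melanoma-like barcodes, and H2-Aa 919 and 185 CPM. Cd74 stood at 43.0% of the immune level in DOPAC and 5.37% in Control barcodes, and H2-Aa at 46.2% and 6.89%. Ciita, the class II transactivator, had 1 UMI in the DOPAC and 3 in the Control melanoma-like barcodes.

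**Figure D5:**
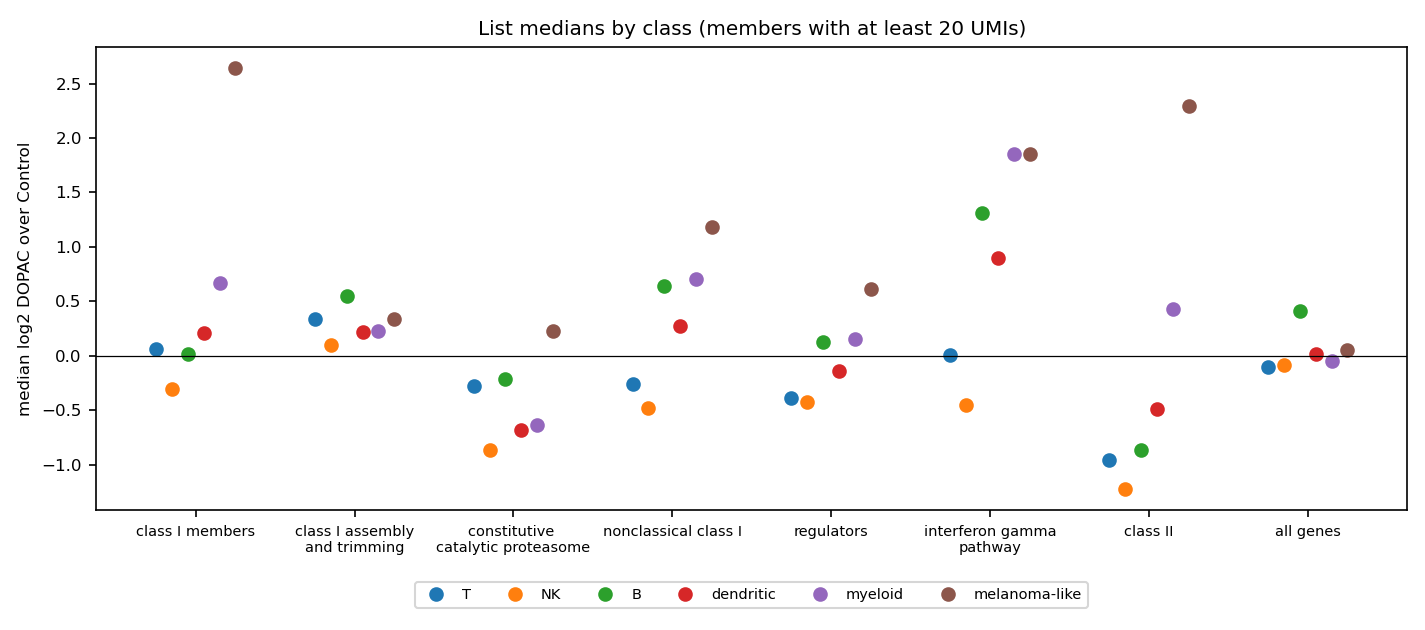
Median log2 of DOPAC over Control for each gene list (columns) and class (colours), over list members with at least 20 UMIs in both sums together. The class I members stand at 0.67 in myeloid cells and 2.64 in melanoma-like barcodes, against medians over all genes of -0.05 and 0.06, while class II genes are below 0 in T, NK, B and dendritic cells.

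The genes whose levels followed the mean of the 10 most closely over the 12 pools of 6 classes and 2 libraries were Psme1 (Pearson r of log2 CPM 0.93), H2-T23 (0.91), Samsn1 (0.91), Rgs1 (0.90) and Psme2 (0.90), among 9803 genes compared. Members themselves ranged from 0.35 for Psmb10 to 0.96 for Psmb8, each being part of the mean. The pools share 2 libraries and their depths, and the low Control melanoma-like pool weighs on every value. Psmb10 thus followed the other members least.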

How the data were processed

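Each deposited table gives unnormalized UMI counts for each gene in each barcode. Cell Ranger 7.0.1 wrote the tables, per the file headers, and the genome was GRCm38, per the submitters' processing notes. The tissue label and design text name tumors, whereas the protocol text names colon, and the cell type label says lymphocyte although myeloid and dendritic cells were found; the tissue label was followed. The DOPAC library held 10777 barcodes and 47769958 UMIs, the Control library 9629 and 100938364; 32 barcodes occurred in both.

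Cells with at least 500 UMIs, 200 genes and at most 10% mitochondrial UMIs were kept. Scrublet (scanpy 1.11.5) marked 4.32% of Control cells, and 365 were removed. It marked 0% of DOPAC cells, and 870 cells were then removed from the top of the score, the number expected at 0.8% per 1000 barcodes. A barcode took an immune class with at least 3 UMIs of at least 2 of its markers and at least 4 times the UMIs of every other list. Melanoma-like barcodes also had to hold more melanoma marker UMIs than immune marker and Ptprc UMIs together. No clustering was used.

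UMIs were summed per class and library. Intervals are exact Poisson for CPM, exact conditional for folds and Clopper-Pearson for shares, at 95%, and cover counting error only. Fold changes are ratios of CPM without an added count; log2 ratios have 1 count added to each sum. List medians used genes with at least 20 UMIs in both sums together. The computation was tested on simulated counts. The members, gene lists and gates were chosen with earlier results of these data known. Named were all 10 members, other pathway genes past 1.5-fold in 4 classes with at least 100 cells, further pathway genes picked after their values were seen as examples of their list, and the 5 genes most like the members' mean. Alternatives were other doublet, mitochondrial and gate settings, thinning, equal cell weights, other scalings and subsets of cells. A naive-type marker and a regulator of the planned lists are not reported here, and the naive-type gate and the regulator list were computed without them.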

Additional observations from a re-analysis of the deposited data

How the results depend on the processing

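No paired analysis was possible because each group is 1 library. Under the alternatives run for this count, no median or single-gene value of 1.5-fold or more changed sign. Smaller ones did, in 8 of 90 alternatives for medians and 17 of 620 for single genes. Among them were Tap1 in T cells (0.35, against -0.34 without naive-type cells) and in dendritic cells (0.27, against -0.37 with cells thinned). Tapbp in melanoma-like barcodes had -0.31, against 1.63 with cells thinned. CD8 T cells without naive-type cells were not among these alternatives. In them the log2 ratio of Nlrc5 was -0.025, against 0.68 in the whole T class. Of the single-gene values 476 stayed within the counting interval and 144 moved beyond it. The median log2 ratio of DOPAC over Control over the class I members was 0.67 in myeloid cells. It was 0.76 with the stricter gate, 0.57 with cells thinned to 1000 UMIs, 0.46 in monocyte-type and 0.85 in macrophage-type cells alone. In T cells it was 0.06, against -0.0175 with the gate on thinned cells, 0.16 with cells weighted equally, 0.16 with the median gene set to 0 and -0.38 without naive-type cells. In dendritic cells it was 0.21, against 0.0020 with the gate on thinned cells and -0.0085 with cells thinned. The T and dendritic medians thus have no settled sign. In melanoma-like barcodes it was 2.64 and ranged from 1.92 (under 20000 UMIs) to 2.65. The Control median of melanoma-like over immune classes was -2.47, against -1.70 with cells thinned, -3.29 in the 11 barcodes without Ptprc UMIs and -1.18 in the 5 without immune marker UMIs; the cause was not tested. The limits to 20000 UMIs and to barcodes without immune markers, and the added count in proportion to the totals, were chosen after seeing the data. NK medians ranged from -0.36 to -0.18 and B medians from -0.39 to 0.13. The B median, 0.017 in the main setting, thus has no settled sign either. Depth limits the B and melanoma-like values most, with 67854 and 137108 DOPAC UMIs in all.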
